A study of Mus musculus with 21 samples.

Results

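The effect of GSKJ4, a small-molecule inhibitor of the H3K27 demethylases Kdm6a and Kdm6b, was measured at day 6 (D6) of motor neuron differentiation, with treated and untreated libraries of the same replicate number taken as pairs. The 6 D6 libraries, 3 untreated and 3 treated, were chosen from 21 by their labels, and 16301 of the 55400 genes in the count table held enough reads to be tested. All cultures were embryoid bodies grown from C57BL/6 mouse embryonic stem cells on fibroblast feeders. Every D6 culture had received 1 µM retinoic acid (RA), 0.5 µM of the Smoothened agonist SAG and 5 µM of the γ-secretase inhibitor DAPT. In the study's protocol the medium given at day 5 held DAPT but no RA or SAG. RA and SAG were thus withdrawn from every D6 culture on the day that GSKJ4 was added to the treated ones. The D6_GSKJ4 cultures differed from D6 only in that GSKJ4 was added at day 5, 1 day before collection. Its dose for RNA-seq, and whether the untreated cultures received vehicle, were not given in the sources used here. The RNA came from whole cultures, in which fewer cells of a type and less RNA per cell cannot be told apart. Each library held between 15099293 and 16672295 counts on genes.

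Trimethylation of histone H3 at lysine 27 is placed by the PRC2 complex and holds developmental genes silent until it is removed. Kdm6a and Kdm6b remove it, and motor neuron genes carry it before they are switched on. At D6 these cultures are passing from newly born motor neurons, which express Isl1, Lhx3 and Mnx1, to cells that extend axons and build synapses under Onecut and Cux factors.

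Levels in the text are CPM, counts scaled to library size by the trimmed mean of M values (TMM), and differences are log2 fold changes of GSKJ4 over untreated with their standard error (SE). The labelled cell type was borne out by its markers, compared here per length as FPKM. *Tubb3*, the neuronal tubulin, ranged from 1245 to 1442 FPKM over the 6 libraries, *Isl1* from 104 to 139, *Slc18a3*, the vesicular acetylcholine transporter, from 155 to 219, and *Chat* from 23.2 to 32.5. *Lhx3* was low, at 1.67 to 3.82 FPKM. Markers of other cells were also present. *Foxa2*, a floor plate factor, ranged from 10.4 to 19.1 FPKM, *Pou5f1* from 1.53 to 14.5 and *Col1a1* from 1.42 to 7.6, whereas *Gfap* reached at most 0.09 and *Gad1* 0.14.

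GSKJ4 lowered 209 genes (1.28% of those tested) and raised 48 (0.294%) in the paired fit, edgeR's quasi-likelihood test with the replicate number as a block and an adjusted p under 0.05. The falls were moderate. They ranged from −0.15 to −1.69 with a median of −0.40, and 14 genes had a log2 change of −1 or below. *Calb1*, encoding the calcium buffer calbindin, had the lowest value, but with a mean of 67.3 counts it lay outside the rule for named genes and was singled out after its values were seen. The rises ranged from 0.17 to 0.86 with a median of 0.37. The median over all tested genes was 0.00, which TMM scaling sets close to 0. Of the lowered genes 208 were lower in all 3 pairs, as were 16.6% of all tested genes. All 48 raised genes were higher in all 3 pairs, as were 15.7% of all tested genes. The calls were made on these same pairs, so a shared direction follows largely from the call. The exception among the lowered was *Col4a1*, a basement membrane collagen named after its values were seen, with pair values of −0.73, −0.90 and 0.12. The groups did not overlap for 52 of the lowered genes (2.56% of all tested genes were lower without overlap) and for 21 of the raised genes (2.73% were higher without overlap).

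Without the replicate block no gene passed, and 134 genes lower and 88 higher had an unadjusted p under 0.05. With the block these counts were 1046 and 722. The median SE was 0.0976 with and 0.196 without the block, and the common biological coefficient of variation was 5.39% and 21.7%. In a balanced design the block leaves the fold changes nearly as they are, and the fits differed in the spread assigned to each gene. A fit of all 21 libraries, which shares the spread of the other stages, called 1 gene lower, *Cyp26b1*, and limma voom with the replicate number as a random effect called 4 lower and 1 higher. The paired calls therefore rest on the numbers marking true pairs, which no source states, and on the fit used.

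**Figure D1:**
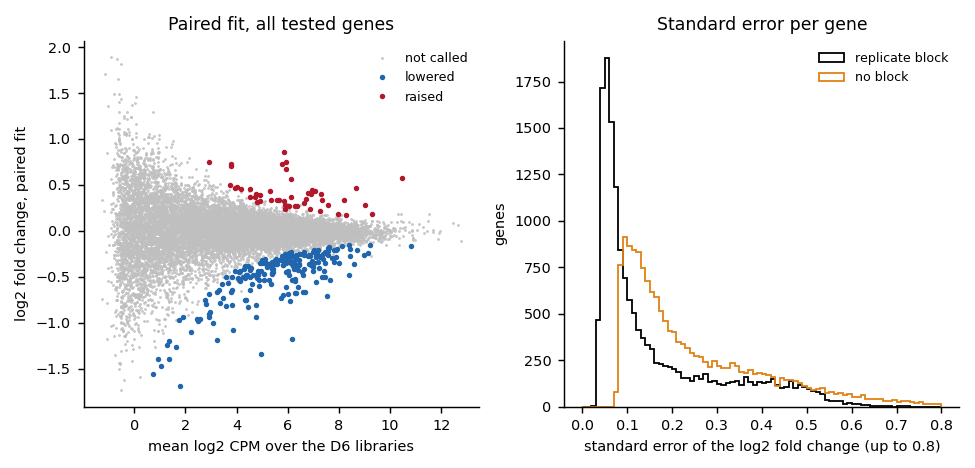
Left, log2 fold change of GSKJ4 over untreated in the paired fit against mean log2 CPM over the D6 libraries, 1 point a gene; blue points are the 209 lowered and red points the 48 raised genes. Right, number of genes by the standard error of that change, with the replicate block (black, median 0.0976) and without it (orange, median 0.196).

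The numbers divided the D6 libraries more than GSKJ4 did. The replicate number changed 7737 genes (47.5% of those tested) in the same fit. Deviations from the group mean in same-numbered libraries correlated at 0.757, 0.431 and 0.574 across genes, which are not independent replicates. In differently numbered libraries they correlated at −0.591 to 0.245, with replicates 2 and 3 positive in both directions (0.245 and 0.187). Replicate 1 stood apart in both groups. *Top2a*, the topoisomerase of dividing cells, was at 81.5, 198 and 235 CPM in untreated replicates 1, 2 and 3 and at 79.8, 240 and 238 CPM under GSKJ4. The summed level of 26 S phase genes was 712, 1257 and 1431 CPM untreated and 707, 1329 and 1362 CPM treated. None of the 26 S phase and 24 mitosis genes passed the GSKJ4 test, and all 50 differed by replicate number.

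**Figure D2:**
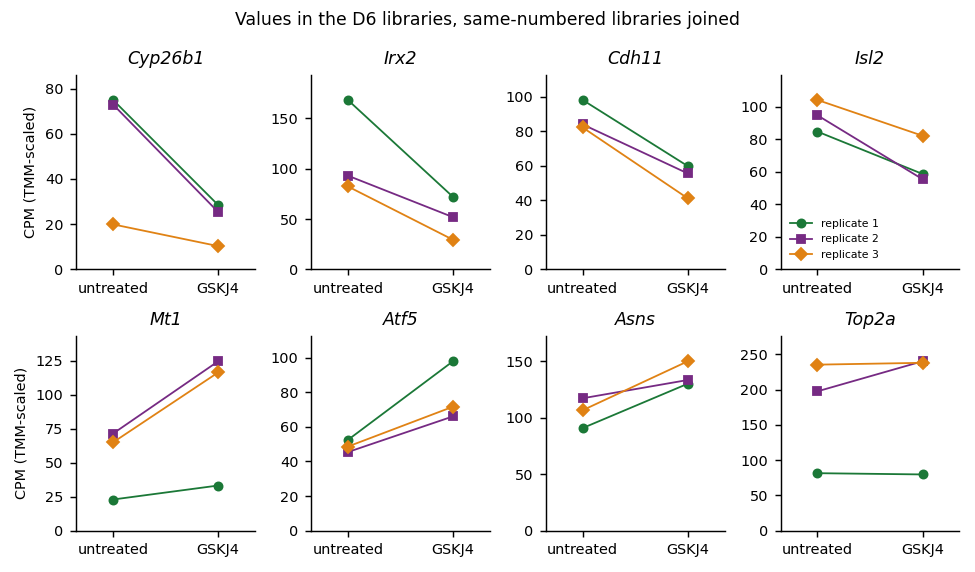
CPM of 8 genes in the D6 libraries, with the untreated and the GSKJ4 library of each replicate number joined by a line and each vertical axis starting at 0. *Cyp26b1*, *Irx2*, *Cdh11* and *Isl2* drop along every line and *Mt1*, *Atf5* and *Asns* climb, while for *Top2a* replicate 1 lies at 79.8 to 81.5 CPM and the others at 198 to 240 CPM.

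The gene most lowered among those with at least 100 counts was *Cyp26b1*, which encodes an enzyme that degrades RA. It was at 74.9, 72.9 and 19.9 CPM in untreated replicates 1, 2 and 3 and at 28.4, 25.4 and 10.3 CPM under GSKJ4. The groups overlapped at replicate 3, which was low in both, and each treated library lay below its partner. The change was −1.34 ± 0.09 (SE, 3 pairs; edgeR adjusted p = 1.46e-07). Its untreated level was 172 FPKM at D5 and 10.3 FPKM at D6. The medium lost RA between these stages, and the part of that in this fall was not tested. Other genes of RA metabolism and response, a set listed after values were seen, also moved. *Aldh1a2*, which makes RA, fell by 0.67, the receptor gene *Rarb* fell by 0.47, and *Stra6*, the retinol transporter, rose by 0.34. The remaining 14 of 18 tested members did not pass.

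The Iroquois homeodomain genes, factors of spinal cord patterning that were also listed after values were seen, included the second most lowered of these genes. *Irx2* was at 168, 93.0 and 82.4 CPM untreated and at 72.0, 51.9 and 29.4 CPM treated, with no overlap between groups (−1.17 ± 0.08, adjusted p = 1.46e-07). *Irx1* fell by 0.53 and *Irx5* by 0.32, and *Irx3* was at 0.15 and did not pass. The promoters of the pair of genes that fell most are shown for their letters around the annotated start. They run 5′ to 3′ along the gene from 250 bases before to 50 bases after the start, from RefSeq on GRCm38.p6. *Cyp26b1* (chr6:84593761-84594060, minus strand) was searched on both strands for ATCGAT and for ATCAAT, letters that Onecut factors bind, for TAATTA, the homeodomain core, for CAGATG, an E-box of neurogenic factors, and for TGACGTCA, the cyclic AMP element. It held none of them. *Irx2* (chr13:72628570-72628869, plus strand) held CAGATG once, in capitals.

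Cyp26b1: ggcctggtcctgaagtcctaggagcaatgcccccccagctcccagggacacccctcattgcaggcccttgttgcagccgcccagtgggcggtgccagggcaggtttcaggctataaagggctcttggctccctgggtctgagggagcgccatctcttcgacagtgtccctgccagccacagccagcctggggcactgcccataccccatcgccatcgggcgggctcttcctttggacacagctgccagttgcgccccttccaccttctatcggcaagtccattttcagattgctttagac
Irx2: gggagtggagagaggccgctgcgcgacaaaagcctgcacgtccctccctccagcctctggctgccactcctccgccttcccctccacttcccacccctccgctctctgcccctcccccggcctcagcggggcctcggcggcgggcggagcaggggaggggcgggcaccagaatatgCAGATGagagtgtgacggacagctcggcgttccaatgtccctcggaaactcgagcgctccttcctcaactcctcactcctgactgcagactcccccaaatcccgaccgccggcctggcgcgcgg

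Shares of promoters that hold a motif were compared as a description. CAGATG was found in 11.8% of the 152 lowered genes with a promoter in the table, in 11.4% of the 11489 tested genes and in 17.2% of all 27025 promoters. The other shares were 0.658% and 0.870% for ATCGAT, 2.63% and 4.14% for ATCAAT, 0.658% and 2.47% for TAATTA, and 2.63% and 3.25% for TGACGTCA, in lowered and in tested genes. Over all promoters they were 0.881%, 7.76%, 5.31% and 1.88%. The median count of CG was 21 in lowered and 20 in tested genes.

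Among 34 tested motor neuron transcription factors, 6 fell (17.6%) and 1 rose (2.94%), with a median of −0.06. Over all tested genes 1.28% were lowered and 0.294% raised, the shares to set beside every list count in the text. The lists were written with earlier results of these data known, so their shares are a description only. *Isl2*, a LIM homeodomain factor of postmitotic motor neurons, was at 84.8, 94.8 and 104 CPM untreated and at 58.7, 55.5 and 82.2 CPM treated. Every treated value lay below every untreated value (−0.54 ± 0.07, adjusted p = 0.000103). *Onecut3* fell by 0.53, *Lhx4* by 0.50, *Cux2* by 0.35 and *Onecut2* by 0.21. *Ebf3* rose by 0.30. *Isl1*, at 445 to 526 CPM untreated and 399 to 572 CPM treated, had a change of 0.01 with a 95% interval from −0.09 to 0.10. *Cux1* was at 0.01 (−0.12 to 0.13), *Onecut1* at 0.08 (−0.04 to 0.21), *Mnx1* at −0.19 (−0.30 to −0.09, adjusted p = 0.0729) and *Lhx3* at −0.32 (−0.64 to 0.00). Of the study's factors at this stage, *Onecut2* and *Cux2* thus passed and *Onecut1* and *Cux1* did not.

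Genes for the transmitter and trophic equipment of motor neurons changed in part, with 3 lowered and 1 raised of 19. *Ret*, the signalling receptor for GDNF, was at 195, 241 and 165 CPM untreated and at 165, 166 and 136 CPM treated. Treated replicates 1 and 2 lay at the level of the lowest untreated library, each below its partner, and the change was −0.35 ± 0.05 (adjusted p = 0.000652). *Slc5a7*, the choline transporter, fell by 0.32, and *Slc10a4*, a vesicular transporter of cholinergic neurons, fell by 0.34. *Met*, the receptor for HGF, rose by 0.43, from 171, 82.4 and 108 CPM to 236, 114 and 139 CPM. *Chodl*, a surface lectin known from fast motor neurons, was at 24.4, 23.3 and 16.8 CPM untreated and at 9.87, 13.3 and 7.52 CPM treated (−1.08 ± 0.12). 

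The Hox genes, which give motor neurons their position along the body axis, had 6 of 24 lowered and none raised, with a median of −0.21. The lowered share was 25%, against 1.28% of all tested genes. The members that fell had paralogue numbers from that of *Hoxa4* to that of *Hoxb8*. *Hoxb5* was at 282, 196 and 164 CPM untreated and at 202, 165 and 93.4 CPM treated (−0.51 ± 0.07, adjusted p = 0.000224). *Hoxb6* fell by 0.38, *Hoxb8* by 0.33, *Hoxa4* by 0.31 and *Hoxa5* by 0.28. The falls of *Hoxa4*, *Hoxa5* and *Hoxb8* lost their call when 1 pair was left out. *Hoxb5* and *Hoxa4* share exonic bases with a gene on the other strand, 100 and 255 bases, and the counting strand was not stated.

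The other leading lowered genes were of several kinds. *Prdm16*, a zinc-finger regulator, was at 44.1, 47.3 and 25.4 CPM untreated and at 24.7, 26.7 and 10.6 CPM treated (−0.94 ± 0.09). *Bcl11a*, another zinc-finger factor, changed by −0.83 ± 0.09. *Lhx1* and *Slc17a6*, the vesicular glutamate transporter, changed by −0.81 ± 0.13 and −0.94 ± 0.16. Both belong to the spinal interneuron list, of which 2 of 15 tested genes passed at a median of −0.35. That list summed to 77.5, 123 and 91.3 CPM untreated and to 66.1, 101 and 68.7 CPM treated, lower in each pair. The sum includes the 2 called genes and is no separate sign of a fall across the list. The list's part in the other results was not tested. *Pdzrn3*, *Brinp1*, *Pappa2*, *Fxyd7* and *Car10* completed the leading genes, at −0.79 to −0.90.

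**Figure D3:**
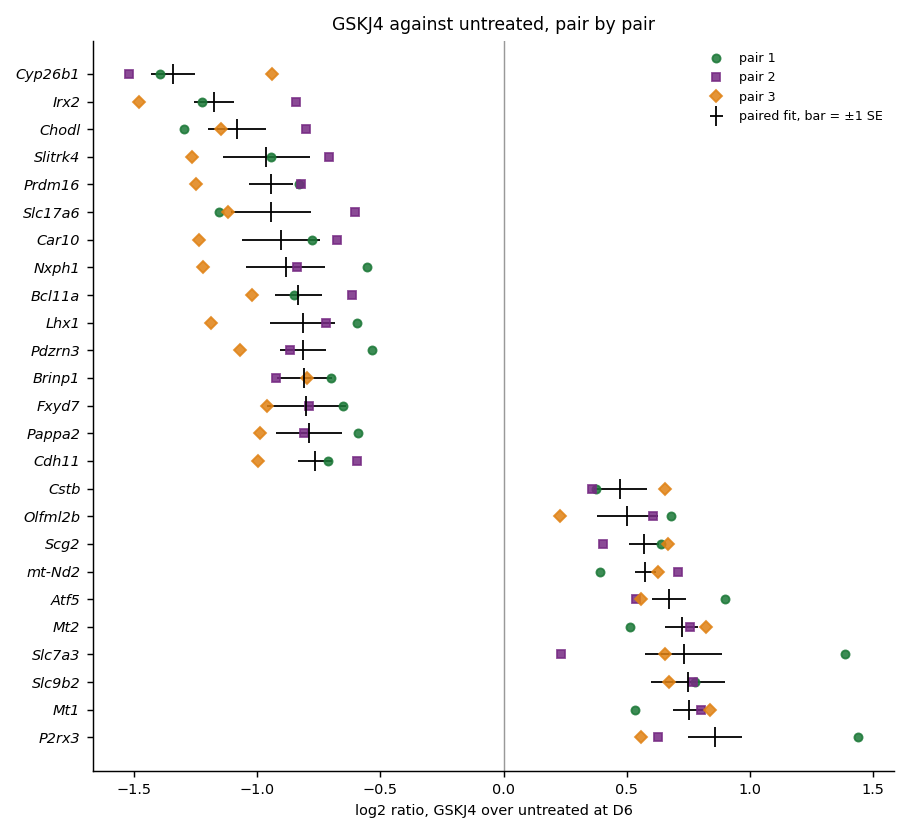
Log2 ratio of GSKJ4 over untreated in each pair of same-numbered D6 libraries (coloured points) and the paired fit with ±1 SE (black), for the 15 lowered and 10 raised genes with the largest changes among those with at least 100 counts. All 3 points of every gene lie on the same side of 0, which the choice of these genes required. *P2rx3* and *Slc7a3* have pair 1 far above the others.

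Adhesion and guidance genes were among the lowered genes. *Cdh11*, a type II cadherin, was at 98.2, 84.0 and 82.2 CPM untreated and at 59.9, 55.6 and 41.2 CPM treated. The groups did not overlap, and the change was −0.77 ± 0.07 (adjusted p = 2.16e-06). It was also one of the 4 genes lowered in the fit with a random replicate effect. Of 25 tested cadherins and protocadherins 4 fell and none rose, *Pcdh10* by 0.41, *Pcdh7* by 0.38 and *Pcdh8* by 0.35. Of 36 immunoglobulin adhesion molecules and contactins 7 fell and 1 rose (19.4% and 2.78%, against 1.28% and 0.294% of all tested genes). *Chl1*, a neural adhesion molecule of the L1 family, was at 97.3, 71.3 and 45.7 CPM untreated and at 56.8, 48.5 and 25.0 CPM treated (−0.73 ± 0.07). *Kirrel3* fell by 0.58, *Lsamp* by 0.49, *Negr1* by 0.43 and *Alcam* by 0.41.

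Semaphorins, plexins and neuropilins, which steer axons by repulsion and attraction, had 8 members lowered and 1 raised of 30. These shares were 26.7% and 3.33%, against 1.28% and 0.294% of all tested genes. *Sema3d* was at 425, 207 and 280 CPM untreated and at 341, 150 and 230 CPM treated (−0.35 ± 0.04, adjusted p = 8.78e-05). The groups overlapped widely, as replicate 1 was high in both, and each pair dropped. *Sema3a* fell by 0.38, *Sema6a* by 0.37 and *Sema5b* by 0.36. *Sema5a* moved the other way, from 157, 136 and 124 CPM to 219, 187 and 148 CPM, a rise of 0.40 ± 0.05. In the Slit, Robo, netrin and ephrin list 5 of 44 fell and none rose, *Epha3* by 0.93, *Flrt2* by 0.76, *Robo1* and *Dcc* by 0.27 each and *Efnb2* by 0.23.

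Synapse organizers, the surface proteins that align the sides of a synapse, had 10 of 45 members lowered (22.2%, against 1.28% of all tested genes) and none raised, with a median of −0.21 against 0.00 over all genes. The list was written with earlier results of these data known, so its share is a description only. The study had named *Cbln2*, *Slitrk3* and *Nxph1* among genes lowered by GSKJ4 at D6. *Cbln2*, a secreted ligand of neurexins, was at 24.9, 24.5 and 27.8 CPM untreated and at 17.4, 15.1 and 13.5 CPM treated (−0.75 ± 0.11, no overlap). *Slitrk4* fell by 0.96, *Nxph1* by 0.88, *Slitrk3* by 0.73 and *Lrfn5* by 0.67. The presynaptic vesicle machinery had 1 of 39 lowered, *Sv2c* by 0.36, and the neuronal cytoskeleton had 1 of 33, *Crmp1* by 0.17. Of voltage-gated channels 3 of 48 fell, including *Kcnd2* by 0.48 and *Cacna1g* by 0.38, and of ligand-gated receptors 3 of 32 fell. Among the latter, *Grik3*, a kainate receptor subunit, was at 114, 117 and 73.3 CPM untreated and at 75.8, 73.7 and 42.5 CPM treated (−0.67 ± 0.06).

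**Figure D4:**
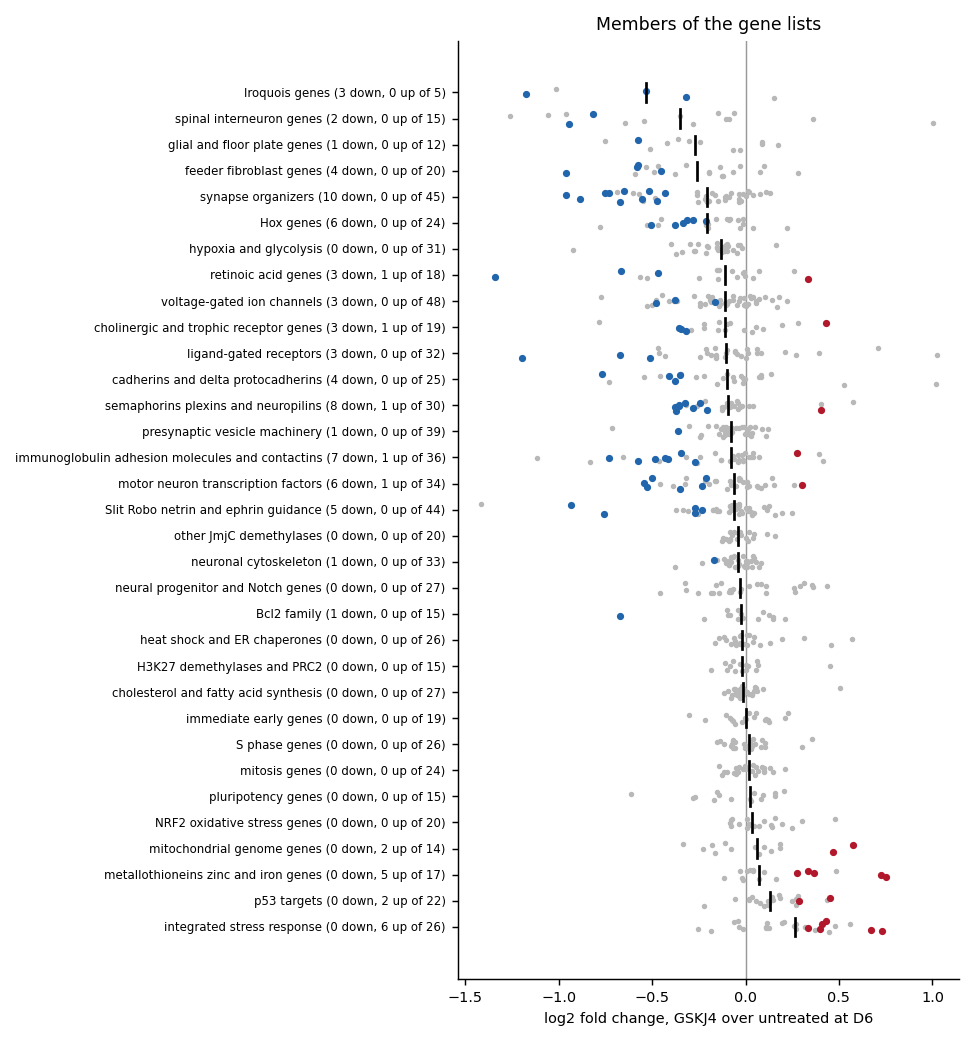
Log2 fold change at D6 of each tested member of 33 gene lists, with lowered members in blue, raised members in red, others in grey and the list's median as a black bar. The lists are sorted by median, with vertical scatter for legibility only, and the integrated stress response lies highest at 0.26. All lists were chosen with earlier results of these data known. The retinoic acid, Iroquois, mitochondrial genome and Bcl2 lists were added later, after values were seen.

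Markers of other cells moved with the lowered genes in part. Of 20 tested fibroblast genes 4 fell, *Lox* by 0.96, *Col3a1* by 0.58, *Pdgfra* by 0.57 and *Mmp2* by 0.45, at a list median of −0.26. Their summed level was 382, 649 and 881 CPM untreated and 315, 518 and 934 CPM treated, lower in pairs 1 and 2 and higher in pair 3. Glial and floor plate genes had 1 of 12 lowered, which was *Pdgfra* again, and summed to 231, 285 and 280 CPM untreated and 225, 270 and 262 CPM treated. None of 15 pluripotency genes passed (median 0.02), and none of 27 neural progenitor and Notch genes did (median −0.03). The part of these cells in the other results was not tested.

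The raised genes included members of stress and metal lists. The integrated stress response, the ATF4 programme that cells run when translation initiation is restrained or amino acids are short, had 6 of 26 raised and none lowered, at a median of 0.26. The raised share was 23.1%, against 0.294% of all tested genes. *Atf5*, a transcription factor of this programme, was at 52.4, 45.4 and 48.6 CPM untreated and at 97.8, 66.0 and 71.6 CPM treated, with no overlap (0.67 ± 0.07, adjusted p = 1.26e-05). *Asns*, asparagine synthetase, was at 91.0, 117 and 107 CPM untreated and at 130, 134 and 150 CPM treated (0.40 ± 0.06). *Slc7a3* and *Slc7a5*, amino acid transporters, rose by 0.73 and 0.41, and *Phgdh*, the first enzyme of serine synthesis, rose by 0.43. *Slc7a3* held 1 pair far above the others, and without single pairs its change ran from 0.44 to 1.01 with adjusted p between 1.27e-05 and 0.303.

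Genes of metal handling had 5 of 17 raised (29.4%, against 0.294% of all tested genes) and none lowered, at a list median of 0.07. *Mt1*, a metallothionein that binds zinc and copper, was at 23.0, 71.4 and 65.0 CPM untreated and at 33.3, 125 and 116 CPM treated. The groups overlapped, as both replicate 1 libraries were low, and the change was 0.75 ± 0.06 (adjusted p = 1.39e-06). *Mt2* rose by 0.72 with the same order of libraries; the genes are close copies and their reads may be shared. *Slc30a1*, the zinc exporter, rose by 0.37, *Tfrc*, the transferrin receptor, by 0.33 and *Slc11a2*, an iron transporter, by 0.28. Each of these 3 calls ended when a single pair was left out, with adjusted p up to 0.300 for *Slc30a1*, 0.0971 for *Tfrc* and 0.155 for *Slc11a2*. The promoters of *Mt1* (chr8:94178839-94179138, plus strand) and *Asns* (chr6:7693160-7693459, minus strand) are shown because each holds letters known from its regulation, in capitals. These are TGCNCNC, a loose form of the metal response core, and TGATGNAA, the amino acid response core. Both motifs were chosen after values were seen.

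Mt1: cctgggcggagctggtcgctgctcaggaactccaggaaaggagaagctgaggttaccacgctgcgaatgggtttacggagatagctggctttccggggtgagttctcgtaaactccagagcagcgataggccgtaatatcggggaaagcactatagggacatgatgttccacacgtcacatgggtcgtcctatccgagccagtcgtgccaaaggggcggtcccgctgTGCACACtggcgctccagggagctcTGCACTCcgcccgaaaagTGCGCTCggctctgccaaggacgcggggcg
Asns: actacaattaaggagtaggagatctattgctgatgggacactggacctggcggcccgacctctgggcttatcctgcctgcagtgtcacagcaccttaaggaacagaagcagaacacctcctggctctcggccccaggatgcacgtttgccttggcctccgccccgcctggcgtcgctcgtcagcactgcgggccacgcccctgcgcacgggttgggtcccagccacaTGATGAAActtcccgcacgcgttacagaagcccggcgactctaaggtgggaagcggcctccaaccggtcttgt

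TGCNCNC stood 3 times in the *Mt1* window, with first bases at −23, 3 and 21 from the start, and TGATGNAA once in that of *Asns*, at −23. The window of *Atf5*, searched in the same way, held no TGATGNAA and is not printed. TGCNCNC, searched with any base at each N, is common. It was held by 65.6% of the 32 raised genes in the table, 60.7% of tested genes and 50.4% of all promoters. TGATGNAA was held by 6.25% of those raised genes, 2.20% of tested genes and 4.06% of all promoters. Of the integrated stress response genes with a promoter, 6 of 22 tested and 1 of 4 raised held TGATGNAA. Of the metal handling genes with a promoter, 9 of 14 tested and 4 of 4 raised held TGCNCNC.

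Outside these lists *P2rx3*, an ATP-gated channel of sensory neurons, had the largest rise, from 32.1, 41.0 and 60.3 CPM to 87.3, 63.4 and 88.7 CPM (0.86 ± 0.11, no overlap). *Scg2*, a granule protein of neuroendocrine cells, rose by 0.57, and *Slc9b2*, *Olfml2b* and *Cstb* rose by 0.75, 0.50 and 0.47. *mt-Nd2*, a complex I subunit encoded in the mitochondrial genome, was at 1152, 1282 and 1090 CPM untreated and at 1512, 2096 and 1682 CPM treated (0.58 ± 0.04). Of 14 tested mitochondrial genes only it and *mt-Rnr2* (0.47 ± 0.07) passed, and the list median was 0.06. *Hrk*, a pro-death member of the Bcl2 family, fell by 0.67 ± 0.06 and was the 1 member of 15 that passed.

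Among p53 targets 2 of 22 rose (9.09%, against 0.294% of all tested genes), *Ccng1* by 0.29 and *Psrc1* by 0.45. Of the 22, 20 lay above 0, at a median of 0.13. None passed among 26 heat shock and chaperone genes, 20 NRF2 genes, 27 cholesterol and fatty acid genes, 19 immediate early genes or 31 hypoxia and glycolysis genes. Of the last 30 lay below 0, at a median of −0.13. These counts depended on pair 3 for some of the abundant members. Without replicate 3 *Eno1* and *Pkm*, glycolytic enzymes, passed at −0.34 and −0.23 (edgeR adjusted p = 1.82e-15 and 3.14e-07), and *Scd2*, a fatty acid desaturase, passed at −0.13 (0.0292). With all pairs they were at −0.15, −0.10 and −0.08, and each was lower in pairs 1 and 2 and higher in pair 3. 

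The mRNA levels of the inhibitor's own targets did not pass the test. *Kdm6b* was at 338, 245 and 260 CPM untreated and at 305, 236 and 251 CPM treated (−0.08, 95% interval −0.17 to 0.00, adjusted p = 0.462). *Kdm6a* was at 0.06 (−0.06 to 0.17) and *Uty* at −0.10 (−0.31 to 0.11). None of the 15 tested H3K27 demethylase and PRC2 genes passed, with *Ezh1* at −0.06, *Ezh2* at −0.02, *Eed* at −0.03 and *Suz12* at 0.06, and none of the 20 other JmjC demethylases did. GSKJ4 acts on the enzymes, so mRNA levels are no check of the treatment.

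Of the 209 lowered genes 158 (75.6%) were on the study's list of genes assigned to D6 Kdm6b peaks, against 64.6% of the 48 raised and 46.2% of all tested genes. From the side of the list, 2.1% of its 7534 tested genes were lowered, against 0.582% of the 8767 others and 1.28% of all. The lowered genes were also long and, like the raised genes, well expressed. Their genomic span had a median of 86.4 kb (quartiles 13.8 and 228 kb) against 20.6 kb over all tested genes and 16.2 kb for raised genes, and 47.4% of them spanned over 100 kb, against 13.5% of all. Their median untreated level was 9.52 FPKM, against 5.12 FPKM over all tested genes and 12.3 FPKM for raised genes. The relation of span and level to the peak list was not tested.

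Some of these calls needed a particular pair. Without replicate 1 the falls of *Slitrk4*, *Epha3*, *Fxyd7*, *Slitrk3*, *Lrfn5*, *Kirrel3*, *Kcnd2*, *Mmp2*, *Negr1*, *Sema3a*, *Sema5b*, *Hoxb8*, *Hoxa4* and *Efnb2* no longer passed, with adjusted p from 0.0682 to 0.468. Nor did the rises of *Slc11a2*, *Ccng1*, *Ebf3*, *Stra6*, *Slc30a1*, *Slc7a5*, *Phgdh*, *Psrc1*, *Cstb*, *Olfml2b*, *Slc7a3* and *Slc9b2* (0.0570 to 0.388). Without replicate 2 the calls lost were those of *Epha3*, *Nxph1*, *Fxyd7*, *Pdgfra*, *Mmp2*, *Negr1*, *Pcdh8*, *Slc10a4*, *Irx5*, *Efnb2*, *Onecut2*, *Crmp1*, *Slc11a2*, *Tfrc*, *Slc30a1*, *Cstb*, *Olfml2b* and *Slc9b2* (0.0518 to 0.310). Without replicate 3 they were those of *Kirrel3*, *Hoxb8*, *Hoxa5*, *Efnb2*, *Onecut2*, *Tfrc*, *Stra6*, *Slc30a1*, *Psrc1* and *Cstb* (0.0506 to 0.342). Without replicate 3 the change was −0.14 for *Hoxa5*, −0.21 for *Hoxb8*, −0.22 for *Pcdh7*, −0.12 for *Onecut2*, 0.14 for *Tfrc* and 0.28 for *Psrc1*. Without replicate 1 it was 0.30 for *mt-Rnr2*, which still passed. *Cyp26b1*, *Irx2*, *Cdh11*, *Isl2*, *Mt1*, *Atf5*, *Asns* and *mt-Nd2* passed with each pair left out.

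The same inhibitor given 1 day before collection at D5, or at D4H8 (8 hours after day 4), gave a second view in libraries that D6 does not share. The D5 cultures had received 1 µM RA, 0.5 µM SAG and 5 µM DAPT, before RA and SAG were withdrawn. For the D4H8 cultures RA and SAG were recorded at these doses and DAPT was not, although the study's protocol adds it at day 4. Stage and medium cannot be told apart in these comparisons. No difference between the D6 and D5 effects passed for any called gene, and 1 of 17390 genes tested did so in all (0.00575%). This was *mt-Rnr1*, named for that reason, at 0.14 at D6 and 1.73 at D5. At D5 itself 4 genes passed, each of them higher. They were *Mt1*, *Atf5*, *mt-Rnr1* and *Trim66*, the last singled out after its values were seen. *Cdh11* was at −1.23 ± 0.22 and *Isl2* at −1.94 ± 0.17 there (adjusted p = 0.256 and 0.0534), *Atf5* at 1.85 ± 0.15 and *Mt1* at 1.64 ± 0.12 (adjusted p = 0.0338 and 0.0201). Of the 196 lowered genes with a D5 value 157 (80.1%) were below 0 there, as were 55.1% of all genes, and of the 48 raised genes 34 (70.8%) were above 0, as were 44.9% of all. Treated replicate 2 at D5 was sparse, with no read on 39381 genes despite a total of 15705324. Each remaining D5 library missed between 30430 and 32287 genes. Without D5 replicate 2, 11 differences from D6 passed, and without D5 replicate 1 or 3 it was 19 or 0. The part of the sparse library in the D5 results was not tested. A difference that did not pass does not show equal effects.

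Against D4H8 more differences passed. The difference passed for 1258 of 17594 genes (7.15%), 629 in each direction, and for 69 of the 257 genes called at D6 (26.8%), whose choice used the D6 side of this difference. *Isl1*, which did not pass at D6, was at −2.51 ± 0.23 at D4H8 (difference 2.50, adjusted p = 0.000336). *Prdm16* was at 0.95 ± 0.37 at D4H8, where its untreated level was 0.27 FPKM, and fell at D6 (difference −1.93, adjusted p = 0.00932). *Mt2* was at 2.68 ± 0.37 at D4H8, above its D6 change by 1.99 (adjusted p = 0.0415), and *Cdh11* at −1.38 ± 0.33. Without the stage blocks the count of differences was 73. Of the 175 lowered genes with a D4H8 value 95 (54.3%) were below 0 there, against 51.0% of all, and of the 48 raised genes 31 (64.6%) were above 0, against 49.0% of all. Same-numbered libraries correlated at 0.490, 0.0895 and 0.298 at D4H8 and at 0.255, 0.0596 and 0.232 at D5. At D4H8 untreated replicate 2 correlated more with treated replicate 3 (0.158) than with treated replicate 2 (0.0895).

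**Figure D5:**
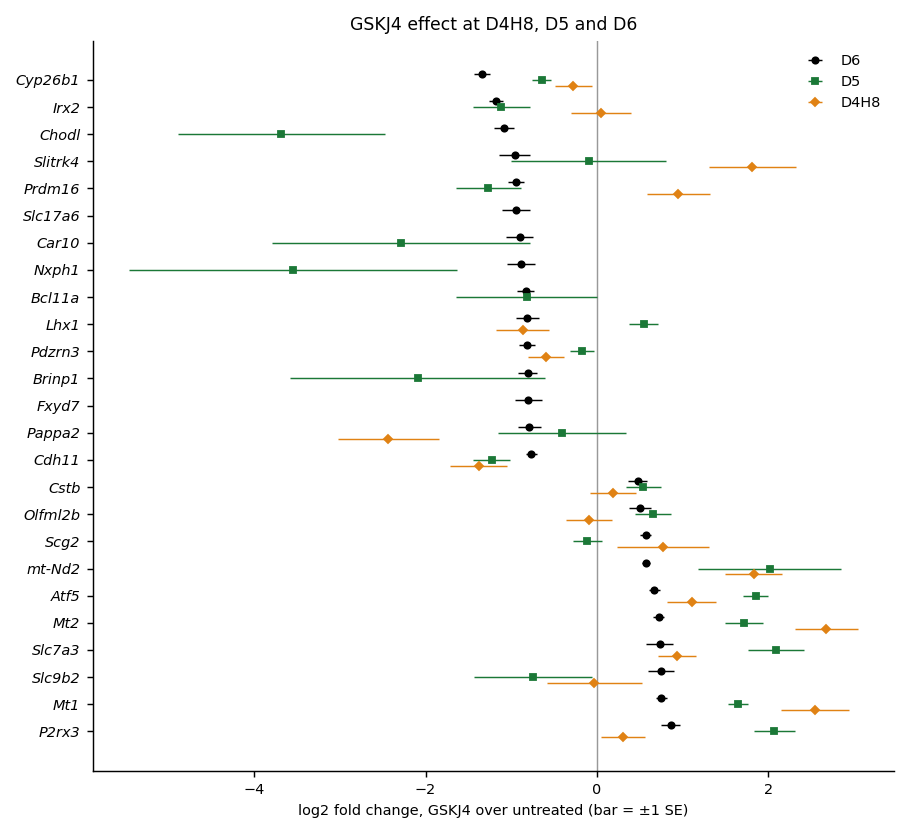
Log2 fold change of GSKJ4 over untreated at D6 (black), D5 (green) and D4H8 (orange) with ±1 SE, each fitted with a replicate block on its own libraries, for the 25 genes of the pair plot. A missing point marks a gene with too few reads at that stage; *Mt1* and *Mt2* lie to the right of 0 at all 3 stages and *Cdh11* to the left.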

How the data were processed

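RNA-seq libraries of D6 cultures with and without GSKJ4 were compared. The authors purified mRNA on poly-T beads, used Fastp for trimming, Hisat2 for alignment (mm10) and HTSeq-count for counting, with no strand stated. The deposited counts are raw reads per gene, and the deposited FPKM values were computed by the authors from counts and exonic length (recomputed here to within 0.005). Totals at D6 ranged from 15099293 to 16672295 counts, which limits weakly expressed genes. Library pairs within a group differed by a chi-square per degree of freedom of 6.94 to 39.9.

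Counts were tested with edgeR 4.0.16 in R 4.3.3 (glmQLFit and glmQLFTest, TMM, filterByExpr at a minimum count of 10, Benjamini-Hochberg at 0.05) on the 6 D6 libraries with the replicate number as a block. That pairing comes from the labels' numbers. Same-numbered D6 libraries deviated together (0.757, 0.431 and 0.574, against −0.591 to 0.245 for unlike numbers). Deviations were taken from the group mean, so high values for like numbers pull those for unlike numbers down. The check used the same libraries as the test and is no independent evidence of pairing. No source says that equal numbers were grown together. In the blocked fit p-values measure how far the treated to untreated difference varied between same-numbered pairs, not the whole spread between libraries. Differences between stages were tested on 12 libraries with a block per stage and number. Alternatives used limma 3.58.1, DESeq2 1.42.0, other scalings, filters and left-out replicates. The steps were tested on counts simulated from the blocked fit itself. The pairs were built into these counts, so the simulation is no test of the pairing. Log2 CPM of single pairs used a prior count of 2.

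Named genes were up to 15 lowered and 10 raised with an adjusted p under 0.05, at least 100 mean counts, a symbol other than a predicted or clone name and one direction in all pairs. Added to them were the Kdm6 and PRC2 genes, the factors of the study at D6, and up to 5 called members of each list (or the 2 most abundant where none was called). Members and lists were chosen with earlier results of these data known. Symbols matched 55140 of 55400 identifiers, positions came from GENCODE M21, and promoters are the first entry of a symbol in a RefSeq table. Exons of 51 lowered and 7 raised genes overlap a gene on the other strand. Among named genes these include *Prdm16*, *Bcl11a*, *Rarb*, *Kdm6b*, *Ebf3*, *Slc30a1*, *Atf5*, *Mt2* and *P2rx3*, whose counts are uncertain in that respect. The authors' peak data were used only as a list of gene names. The result of 1 called gene is not reported here.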

Additional observations from a re-analysis of the deposited data

Results flagged for a closer look

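The results that stood out were differences between the GSKJ4 effect at D6 and that at D4H8, in log2 units as D6 minus D4H8, with an edgeR adjusted p under 0.05 for the difference itself. They concerned 33 named genes. Stage and culture medium both differed between D6 and D4H8 and cannot be told apart here. The D6 effect was the lower one for *Lrfn5* (−3.48), *Slitrk4* (−2.77), *Sv2c* (−2.26), *Mt2* (−1.99), *Flrt2* (−1.95), *Prdm16* (−1.93), *Slc30a1* (−1.81), *Cbln2* (−1.56), *Hrk* (−1.50) and *Irx2* (−1.30). It was also the lower one for *Negr1* (−1.23), *Aldh1a2* (−1.19), *Tbx3* (−1.14), *Efnb2* (−1.10), *Sema6a* (−1.09), *Ccng1* (−1.09), *Grik3* (−1.06), *Cyp26b1* (−1.04), *Met* (−1.02) and *Rarb* (−0.91). The D6 effect was the higher one for *Lhx3* (2.84), *Isl1* (2.50), *Epha3* (2.28), *Onecut1* (1.96), *Vim* (1.45), *Isl2* (1.40) and *Pkm* (1.24), and for *Ebf3* (1.08), *Pcdh8* (1.00), *Phgdh* (0.99), *Scd2* (0.88), *Hmgcs1* (0.84) and *Eno1* (0.81). *Slc30a1*, *Ccng1*, *Met* and *Mt2* rose at D6 and had larger rises at D4H8. *Isl1*, *Lhx3*, *Onecut1*, *Vim*, *Pkm*, *Scd2*, *Hmgcs1*, *Eno1* and *Tbx3* did not pass at D6. Several differences rest on very low levels at D4H8, where the untreated mean was 0.00667 FPKM for *Lrfn5*, which had too few reads for a D4H8 value of its own. It was 0.0433 FPKM for *Sv2c*, 0.06 for *Negr1*, 0.113 for *Slitrk4*, 0.27 for *Prdm16*, 0.417 for *Aldh1a2* and 0.487 for *Cbln2*. Adjusted p for these differences ran from 0.000336 to 0.0499, and leaving out single replicate numbers moved the count of such genes among all tested to between 161 and 3786. Without a block per stage and number 73 genes passed in all. No named gene had a difference between D6 and D5 that passed.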

How the results depend on the processing

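The calls depended on the replicate block and on the fit that used it. Of 209 lowered and 48 raised genes, no replicate block left 0 and 0, DESeq2 with the block 110 and 18, DESeq2 with no replicate block 1 and 0, limma with a random replicate block 4 and 1, one fit over all 21 libraries 1 and 0, and no filter on low counts gave 375 and 117. Leaving out 1 replicate number gave 136 to 299 lowered and 28 to 107 raised. Without replicate 1, 2 or 3, 134, 126 and 176 of the lowered and 22, 29 and 38 of the raised genes kept their call. RLE and upper-quartile scaling, at least 10 counts in every library and a robust dispersion estimate, which was chosen after seeing the data, kept both counts within 1.5 times.

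The count of genes that differed by replicate number was 1269 without replicate 1 and up to 7325 without one of the others. The difference between D6 and D5 passed for 1 gene, for 0 with no replicate block, for 75 with DESeq2 and for 257 with no filter, and for 0 to 19 with a replicate left out. That between D6 and D4H8 passed for 1258 genes, for 73 with no replicate block, for 2497 with no filter, and for 161 to 3786 with a replicate left out. Among 121 named genes none that was called at D6 changed direction, while some that were not called did, such as *Isl1* (−0.05 to 0.09) and *Pkm* (−0.23 to 0.01) with a replicate left out. Over 1573 combinations of gene and setting 450 lost and 7 gained a call. The cause of these changes was not tested.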
